A study of Mus musculus with 14 samples.

Results

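The interferon-inducible p200 family is a cluster of related genes on mouse chromosome 1, most of whose proteins bind DNA and whose transcription is raised by interferons. Described here are 7 of its genes (of the 30284 genes with a transcript in the deposited tables): Aim2, Ifi202b, Ifi203, Ifi204, Ifi209, Ifi213 and Mndal. They were taken by name, and they had been singled out because of how they differed between the groups compared below, so their differences between these groups are given as a description and carry no test. Another 7 genes of the family that the annotation places in the same cluster (Ifi205, Ifi206, Ifi207, Ifi208, Ifi211, Ifi214 and the pseudogene Ifi203-ps) are set beside them.

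Most proteins of the family carry a HIN domain, which grips double-stranded DNA, and most carry a pyrin domain, which joins them to partner proteins. AIM2 is a cytosolic DNA sensor: on DNA it gathers the adaptor ASC (gene Pycard) and caspase-1 into an inflammasome. The family expanded by tandem duplication in mice, so its genes are alike in sequence, and expression of several of them, Ifi202b above all, is known to differ between inbred strains, with little in C57BL/6 and much in NZB.

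RNA came from regulatory T cells of mouse spleen, CD4 T cells that hold immune responses in check and depend on the transcription factor Foxp3. They were sorted by Foxp3 and YFP. The KO-labelled group (3 units) had the genotype Tln1fl/fl Foxp3cre/wt, with both alleles of the integrin activator talin-1 floxed, and the control group (4 units) was Tln1wt/wt Foxp3cre/wt. Every animal, controls included, thus carried 1 copy of the Foxp3 allele with Cre, which is active in Foxp3-expressing cells, and the strain label was C57/B6 throughout. Each library came from 1 or 2 animals. The sources used here give no ages and no origin of the embryonic stem cells behind the engineered alleles. Each unit is the sum of the 2 tables that share its number, and since no label says which animals stand behind a number, the spread between units may be partly technical.

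Units held between 39314880 and 56772674 estimated reads in the KO-labelled group and between 13017008 and 39706502 in the control group. Tln1, the targeted gene, was at 788, 901 and 1014 CPM (reads scaled to a common library size) in the KO-labelled units, against 634, 543, 847 and 649 CPM in controls, so its total level did not mark the knockout and the group is named by its label throughout. Foxp3 (370, 514 and 401 CPM, against 468, 324, 478 and 406 CPM) and Cd4 (593, 570 and 507 CPM, against 568, 623, 687 and 630 CPM) were present in every unit. Markers of other cells were also higher in the KO-labelled units: the summed TPM (a level per transcript length) of 14 B cell markers was 365 to 634, against 51.0 to 136 in controls, that of 18 monocyte and macrophage markers 389 to 747, against 195 to 287, that of 14 dendritic cell markers 259 to 489, against 59.0 to 127, and that of 12 neutrophil markers 391 to 1386, against 1.33 to 27.8. A gene was called where its p from edgeR's quasi-likelihood test, adjusted over all tested genes by Benjamini-Hochberg, was under 0.05. In the order given, 9, 5, 5 and 11 of these marker genes were called higher and none was lower, while 8 of 16 regulatory T cell markers were lower. Over all tested genes 7.07% were called higher and 6.52% lower. Of 13 NK and CD8 T cell markers 8 were higher (75.5 to 170 TPM, against 35.7 to 56.3 TPM), and of 10 erythroid markers none was called (165 to 6319 TPM, against 9.18 to 127 TPM). No marker of these lists was at 0 in all units of either group. The part of such cells in the p200 results was not tested, and in RNA from a bulk sort fewer cells of a type cannot be told apart from less RNA per cell.

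Promoter sequences show how alike these genes are where transcription starts, and which of them hold the interferon-stimulated response element, the motif through which type I interferon raises transcription. RefSeq promoters of GRCm38.p6 (250 bases before to 50 bases after an annotated start) were found for 12 of the 14 genes. The element was searched on both strands as GAAA, 2 bases of any kind and GAAA, and the gamma-activated site, a motif of the response to interferon gamma, as TTCNNNGAA. The first pattern is in 3.44% of all 32851 promoters and in 9 of the 12 p200 genes, where a gene was counted if any of its promoters held it. Mndal and Ifi203 had 2 promoters each, of which 1 each is shown. The Ifi203 promoter not shown held no match. The Mndal promoter not shown held a match with other letters, 54 bases before its start. Capitals mark the motif. Ifi203 and Mndal, neighbours on the minus strand, are shown because their levels moved together, Ifi213 and Ifi211 because they stand for lower and higher genes with the same element, and Ifi202b because it was read only in KO-labelled units. Positions are chr1:173880138-173880437 (Mndal), chr1:173942443-173942742 (Ifi203), chr1:173599223-173599522 (Ifi213), chr1:173912997-173913296 (Ifi211) and chr1:173982795-173983094 (Ifi202b), all on the minus strand.
Mndal: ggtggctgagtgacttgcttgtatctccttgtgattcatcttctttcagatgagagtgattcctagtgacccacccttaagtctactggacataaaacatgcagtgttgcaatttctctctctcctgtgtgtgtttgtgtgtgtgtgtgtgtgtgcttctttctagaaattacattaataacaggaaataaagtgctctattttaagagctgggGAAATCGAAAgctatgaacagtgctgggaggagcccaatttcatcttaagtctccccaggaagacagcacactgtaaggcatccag
Ifi203: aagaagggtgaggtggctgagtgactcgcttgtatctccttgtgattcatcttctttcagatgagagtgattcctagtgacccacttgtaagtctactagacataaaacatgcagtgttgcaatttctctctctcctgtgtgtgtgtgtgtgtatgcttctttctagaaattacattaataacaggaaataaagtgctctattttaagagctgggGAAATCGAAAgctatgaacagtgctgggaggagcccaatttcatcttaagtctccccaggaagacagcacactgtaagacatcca
Ifi213: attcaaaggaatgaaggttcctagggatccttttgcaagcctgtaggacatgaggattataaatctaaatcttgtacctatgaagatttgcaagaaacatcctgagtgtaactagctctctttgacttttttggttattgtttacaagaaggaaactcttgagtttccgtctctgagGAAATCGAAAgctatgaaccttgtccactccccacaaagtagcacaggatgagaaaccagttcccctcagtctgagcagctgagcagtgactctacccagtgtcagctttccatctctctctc
Ifi211: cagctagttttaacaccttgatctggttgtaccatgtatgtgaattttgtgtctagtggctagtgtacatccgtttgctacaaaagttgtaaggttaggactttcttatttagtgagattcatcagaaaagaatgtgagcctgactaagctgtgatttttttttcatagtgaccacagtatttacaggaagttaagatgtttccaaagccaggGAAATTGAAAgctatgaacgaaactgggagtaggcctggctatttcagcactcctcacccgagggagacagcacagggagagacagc
Ifi202b: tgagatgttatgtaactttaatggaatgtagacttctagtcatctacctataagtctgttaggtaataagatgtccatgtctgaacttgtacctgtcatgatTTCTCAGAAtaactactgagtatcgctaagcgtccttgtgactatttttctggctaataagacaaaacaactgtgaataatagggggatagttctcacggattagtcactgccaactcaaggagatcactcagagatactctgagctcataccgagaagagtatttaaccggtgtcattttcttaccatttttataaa

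In the promoters shown, the element began 36 bases before the start of Mndal, 35 before Ifi203, 73 before Ifi213 and 37 before Ifi211, with the same letters in Mndal, Ifi203 and Ifi213. The promoters shown for Mndal and Ifi203 were 97.6% identical over 289 aligned bases. The promoter of Ifi202b held no match to the response element and was the only one of the 12 with the gamma-activated site, 148 bases before its start, a pattern found in 8.30% of all promoters. Aim2 and Ifi209 had no match to either pattern in this window. Promoters with the element thus belonged to genes that were lower in the KO-labelled units and to genes that were higher there. The sequences are those of the reference genome, and the Mndal start is that of RefSeq, which lies within the longer span that GENCODE gives the gene. The tables hold no base calls, so alleles carried by these mice were not read here.

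Aim2 (ENSMUSG00000037860, 173350879 to 173466040, plus strand), the DNA sensor itself, had 79.6, 85.4 and 56.1 CPM in the KO-labelled units, against 127, 93.6, 79.3 and 97.8 CPM in controls. The groups overlapped. Means were 73.7 ± 15.5 CPM (SD, n = 3) and 99.4 ± 19.9 CPM (SD, n = 4), a log2 difference of -0.43 ± 0.19 (SE). Aim2 shares no 31-base word, the length kallisto matches, with any other p200 gene, so its level does not depend on how reads were divided within the family. Its main transcript, Aim2-204, took 73.9, 70.2 and 66.2% of its reads in the KO-labelled units, against 78.1, 83.4, 76.2 and 75.1% in controls.

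Ifi202b (ENSMUSG00000026535, 173962568 to 173982744, minus strand, 7 exons) encodes a protein with HIN domains and no pyrin domain, which binds DNA without signalling and can hold AIM2 back. It had 552, 247 and 1089 reads in the KO-labelled units, and 0 in each of the 4 control units. In CPM these were 12.2, 6.30 and 19.3. Every KO-labelled unit was above every control. Taken over each group, the level was at least 386-fold higher in the KO-labelled units, with the floor of 3 reads over all control units together. Its sequence is its own: 98.8% of the 31-base words of its single transcript occur in no other gene, and none occurs in another p200 gene. Among all genes with no read in any control, reads in every KO-labelled unit and at least 100 there in total, 51 in all, Ifi202b had the most reads (1888). The part of strain alleles in this contrast was not tested.

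Ifi204 (ENSMUSG00000073489, 173747293 to 173766943, minus strand) encodes p204, a pyrin and HIN protein that binds viral DNA and acts in macrophage differentiation. It had 28.4, 31.9 and 28.9 CPM in the KO-labelled units, against 7.39, 2.49, 1.32 and 2.59 CPM in controls. The KO-labelled units lay close together and above all controls. Means were 29.7 ± 1.91 CPM (SD, n = 3) and 3.45 ± 2.69 CPM (SD, n = 4), a log2 difference of 3.14 ± 0.53 (SE). It became 3.82 without control unit 1. Of its words, 33.6% occur in other genes, most of them in Ifi211. The monocyte and macrophage markers given above moved in the same direction. Among controls they were highest in unit 1, the one with the most Ifi204 (287 TPM, against 195 to 202 TPM in the others). The B cell, dendritic cell, neutrophil, NK and CD8 T cell and erythroid markers were also highest in control unit 1. Among KO-labelled units Ifi204 was highest in unit 2, where the monocyte and macrophage markers were lowest (389 TPM, against 634 and 747 TPM). The part of such cells in Ifi204 was not tested.

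The other 4 members were lower in the KO-labelled units, and with them lay most of the family's RNA. Mndal (ENSMUSG00000090272, 173849126 to 173942491, minus strand), a pyrin and HIN protein of the nucleus, had 255, 262 and 67.8 CPM in the KO-labelled units, against 959, 703, 638 and 892 CPM in controls. No unit overlapped, and KO-labelled unit 3 stood well below the other 2. Means were 195 ± 110 CPM (SD, n = 3) and 798 ± 152 CPM (SD, n = 4), a log2 difference of -2.03 ± 0.48 (SE). As a share of the control mean, the KO-labelled units held 31.9, 32.8 and 8.49%.

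Ifi203 (ENSMUSG00000039997, 173920407 to 173942672, minus strand), nearly all of which lies inside the annotated span of Mndal, encodes a further nuclear pyrin and HIN protein. It had 517, 520 and 322 CPM in the KO-labelled units, against 1103, 853, 799 and 976 CPM in controls. The groups were apart, at 55.5, 55.7 and 34.5% of the control mean. The log2 difference was -1.04 ± 0.21 (SE), between means of 453 ± 114 CPM (SD, n = 3) and 933 ± 136 CPM (SD, n = 4). Mndal-201 shares its first exon, 37 bases at 173942455 to 173942491, with the transcripts Ifi203-205 and Ifi203-206, so reads of that exon cannot be given to 1 of the genes. Beyond this exon, 27.0% of the words of Mndal occur in other genes (12.6% in Ifi211). Of the words of Ifi203, 21.7% do (15.9% in Ifi203-ps). Ifi211 and Ifi203-ps were higher in the KO-labelled units.

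Ifi209 (ENSMUSG00000043263, 173630917 to 173647928, plus strand) and Ifi213 (ENSMUSG00000073491, 173566283 to 173599274, minus strand) are less studied pyrin-domain genes of the cluster. Ifi209 had 272, 219 and 126 CPM in the KO-labelled units, against 440, 491, 415 and 488 CPM in controls, a log2 difference of -1.16 ± 0.23 (SE). Ifi213 had 140, 171 and 38.4 CPM, against 391, 295, 366 and 357 CPM, a log2 difference of -1.60 ± 0.49 (SE). In both genes the groups were apart and KO-labelled unit 3 was lowest. Ifi209 shares 46.8% of its words with Ifi214, and Ifi213 shares 23.3% of its words with Ifi208.

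**Figure D1:**
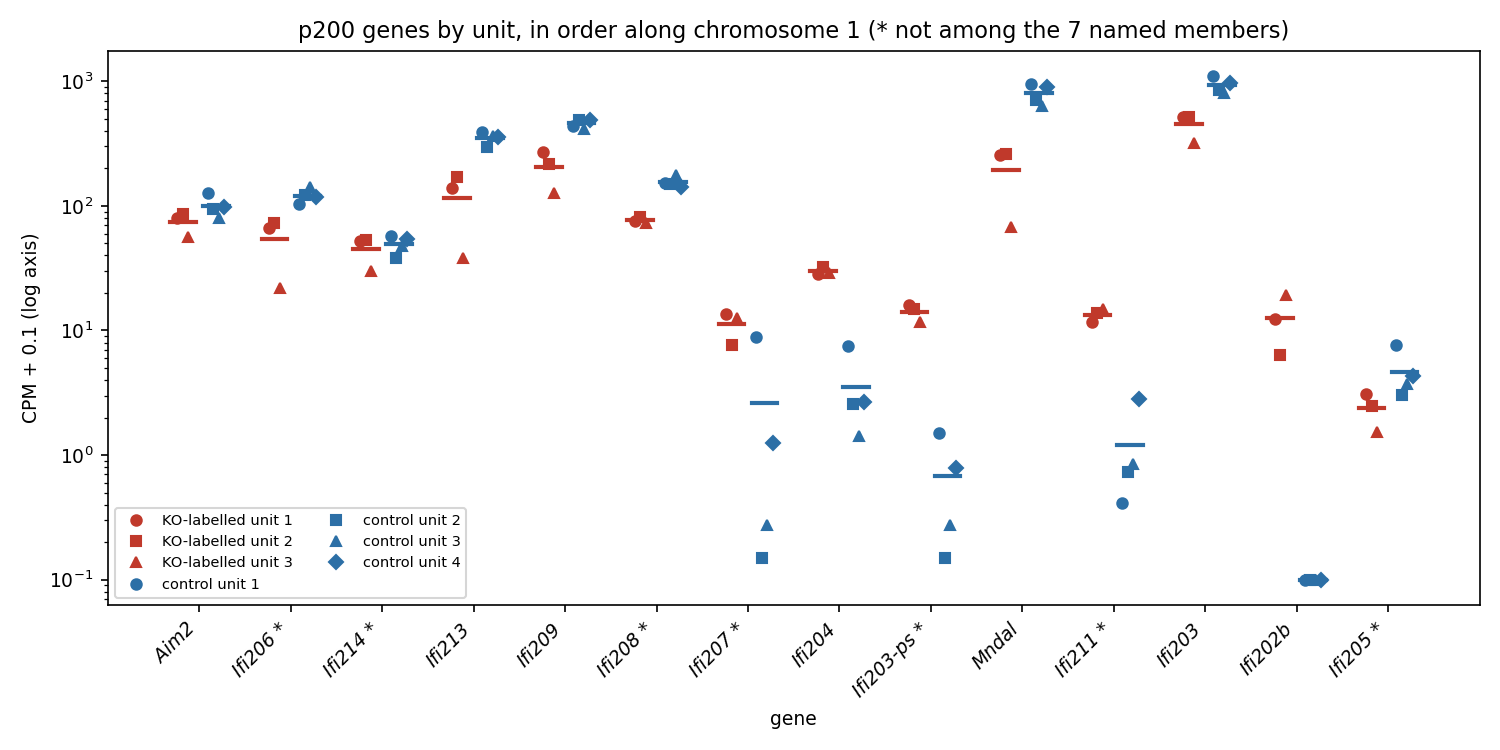
CPM + 0.1 on a log axis for each of the 14 p200 genes in every unit, in order along chromosome 1, with the 3 KO-labelled units in red left of the 4 control units in blue and a line at each mean. Ifi202b is at 0 CPM in every control unit, and Mndal, Ifi203, Ifi209 and Ifi213 are lower in every KO-labelled unit, with unit 3 lowest.

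By the edgeR test above, 5 of the 7 members were called, 2 higher and 3 lower, where 13.6% of the 15775 genes tested were called in either direction, 7.07% higher and 6.52% lower. CPM did not overlap between the groups in 6 of the 7, where 30.8% of all tested genes did not overlap. These genes were chosen on this contrast, so nothing is read from either count. The count was 3 without control unit 4, when Ifi204 and Mndal were not called, and 6 without KO-labelled unit 3, when Ifi213 was called too. Mndal was called in 1 of the 7 fits that left out a unit, the one without KO-labelled unit 3.

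KO-labelled unit 3 stood apart from the other 2 KO-labelled units in several members. Its CPM over their mean was 0.247 for Ifi213, 0.262 for Mndal, 0.516 for Ifi209, 0.621 for Ifi203 and 0.680 for Aim2, against a median of 0.978 over 15632 genes, of which 5.27% were at 0.5 or below. It was 0.958 for Ifi204 and 2.08 for Ifi202b. Unit 3 therefore had the least Mndal and the most Ifi202b. Among the other p200 genes the ratio was 0.313 for Ifi206 and 0.923 for Ifi208. The summed neutrophil markers were at 759.7, 391 and 1386 TPM in KO-labelled units 1 to 3 and the erythroid markers at 573, 165 and 6319 TPM, both highest in unit 3 and, as Ifi202b, lowest in unit 2. The markers of B cells (634, 558 and 365 TPM), dendritic cells (489, 406 and 259 TPM), NK and CD8 T cells (170, 136 and 75.5 TPM) and regulatory T cells (2822, 3007 and 2204 TPM) were lowest in unit 3. Those of monocytes and macrophages were at 634, 389 and 747 TPM, highest in unit 3. The part of these in the values of unit 3 was not tested.

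Compared per length, in TPM, the family ranked differently in the 2 groups. In controls Mndal was highest at 657 ± 180, followed by Ifi203 at 278 ± 59.1, Ifi213 at 162 ± 28.1, Ifi209 at 145 ± 7.31, Aim2 at 93.1 ± 19.4 and Ifi204 at 1.74 ± 1.30 TPM (SD, n = 4). In the KO-labelled units the order was Mndal at 165 ± 90.2, Ifi203 at 136 ± 35.2, Aim2 at 87.3 ± 22.4, Ifi209 at 77.9 ± 25.4, Ifi213 at 53.5 ± 36.2, Ifi204 at 13.0 ± 1.96 and Ifi202b at 6.77 ± 3.13 TPM (SD, n = 3). The ranges of neighbours in the KO-labelled order overlapped from Mndal down to Ifi204, and Ifi202b (at most 10.02 TPM) lay under the range of Ifi204 (at least 11.7 TPM). Within units, Aim2 was below Ifi203, Ifi213 below Ifi209 and Ifi204 below Ifi213 in all 3, while Mndal and Ifi203, and Aim2 and Ifi209, changed places between units. In controls only Ifi213 and Ifi209 overlapped each other among the neighbours with reads. Summed over the 7 members in CPM, which does not depend on how reads were divided among them, the level was 1304, 1295 and 659 CPM in the KO-labelled units, against 3027, 2438, 2300.0 and 2812 CPM in controls.

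The other 7 genes moved in both directions too: 2 were called higher, 1 was called lower and 4 were not called, beside 7.07% higher and 6.52% lower over all tested genes, with a median log2 difference of -0.13 beside 0.06. Ifi208 had 76.1, 81.4 and 72.7 CPM in the KO-labelled units, against 152, 151, 177 and 142 CPM in controls. It fell by 1.02 ± 0.13 (SE) on the log2 scale (edgeR adjusted p = 0.0016), with little spread in either group. Ifi211, 78.9% of whose words occur in other p200 genes, had 11.5, 13.7 and 14.7 CPM, against 0.315, 0.635, 0.749 and 2.74 CPM, a rise of 3.61 ± 0.62 (SE, edgeR adjusted p = 0.0105) that became 4.49 without control unit 4. Ifi203-ps had 15.8, 14.8 and 11.5 CPM, against 1.42, 0.0488, 0.175 and 0.686 CPM, a rise of 4.73 ± 0.86 (SE, edgeR adjusted p = 0.0173). Its call was lost without control unit 4 (adjusted p = 0.0602), its value became 5.73 without control unit 1, and 42.9% of its words occur in Ifi203.

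The remaining 4 were not called in the edgeR fit. Ifi206 had 66.9, 72.6 and 21.8 CPM in the KO-labelled units, against 103, 121, 141 and 118 CPM, a log2 difference of -1.17 ± 0.40 (SE, adjusted p = 0.101). Without KO-labelled unit 3 it was -0.79 (adjusted p = 0.0141). Ifi207 had 13.5, 7.48 and 12.5 CPM, against 8.73, 0.0488, 0.175 and 1.14 CPM, a log2 difference of 2.19 ± 1.50 (SE, adjusted p = 0.372) that became 4.82 without control unit 1 (adjusted p = 0.0266). Ifi205 (-1.0 ± 0.43) and Ifi214 (-0.13 ± 0.22) had adjusted p-values of 0.136 and 0.715, and the sign of Ifi214 turned under 2 of the alternatives.

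**Figure D2:**
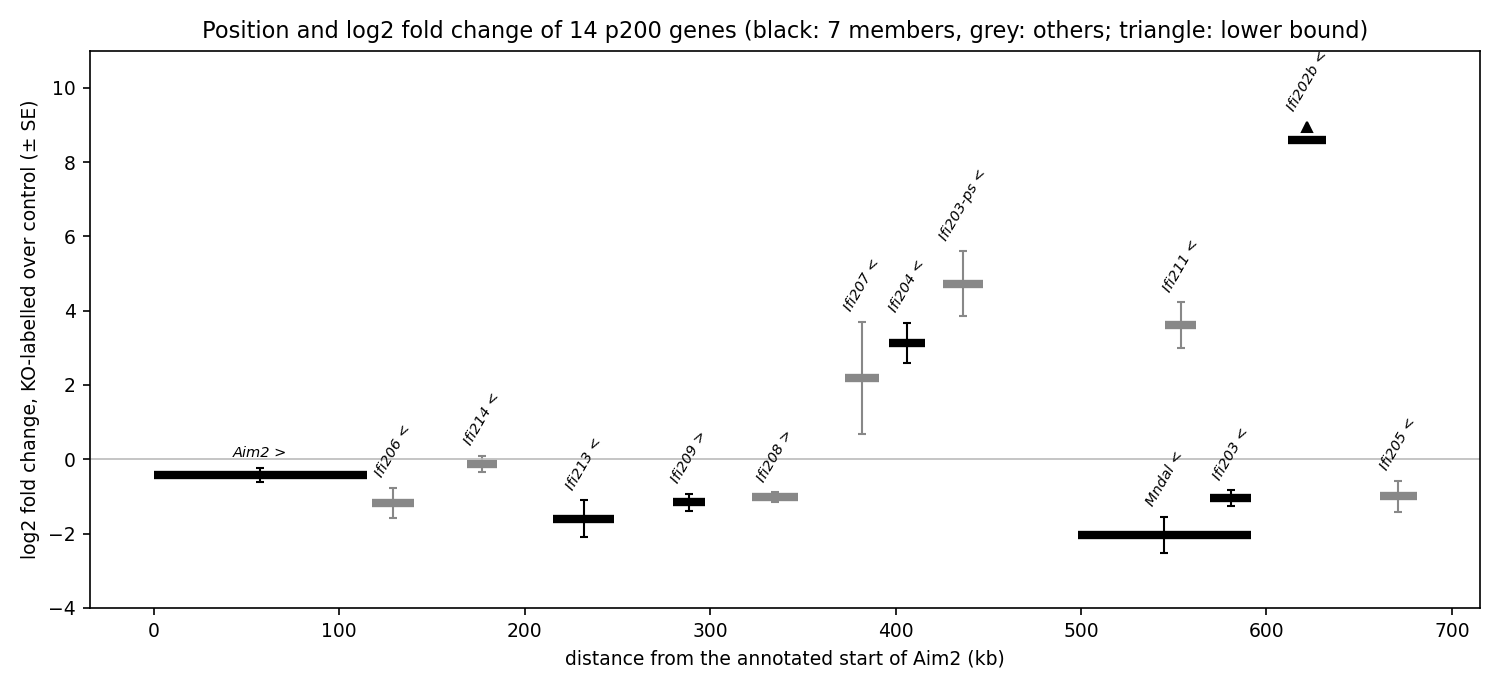
Log2 difference of each p200 gene, KO-labelled over control, with its SE, drawn at the gene's place as the distance in kb from the annotated start of Aim2; members are black, the other genes grey, and arrowheads in the names give the strand. The genes from Aim2 to Ifi208 lie below 0, Ifi214 by less than its SE, and higher and lower genes interleave beyond them, and the triangle marks the lower bound of Ifi202b (at least 386-fold).

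Within genes, the reads also fell on different transcripts. Ifi203-205, which carries an extra exon of 1242 bases (173928275 to 173929516) and a last exon of 385 bases, took 51.8, 52.2 and 69.4% of the reads of Ifi203 in the KO-labelled units, against 21.4, 17.2, 26.9 and 21.3% in controls. Ifi203-202, whose last exon has 2198 bases, took 30.7, 24.6 and 12.0%, against 56.6, 59.9, 41.6 and 60.6%. The lower level of Ifi203 therefore lay outside Ifi203-205. That transcript had 268, 271 and 223 CPM in the KO-labelled units, against 236, 147, 215 and 208 CPM in controls, with overlap, while all other Ifi203 transcripts together had 249, 248 and 98.3 CPM, against 867, 706, 585 and 768 CPM.

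A like shift was seen in Ifi209 and in Ifi208. Ifi209-202, which ends 1845 bases before Ifi209-201, took 34.4, 32.6 and 46.9% of the gene's reads in the KO-labelled units, against 18.4, 8.76, 17.6 and 17.6% in controls. Its own level overlapped, at 93.5, 71.3 and 59.4 CPM, against 80.7, 42.9, 73.0 and 85.9 CPM, and Ifi209-201 was lower, at 178, 147 and 67.1 CPM, against 359, 448, 342 and 402 CPM. Ifi208-202, which ends 928 bases before Ifi208-201, took 23.0, 28.1 and 36.2%, against 0, 0, 3.16 and 0%. In each of the 3 genes, named after their values were seen, the transcript with the larger share in KO-labelled units ends earlier than the one that leads in controls (1813 bases in Ifi203, 1845 in Ifi209 and 928 in Ifi208). Aim2-205, Mndal-203 and Ifi214-202 also gained share without overlap, and end 6313, 17828 and 256 bases before the transcript that leads in controls. Their mean shares rose by 4.88, 4.31 and 26.4 percentage points. These distances are counted along the genome, introns included, and were taken only for the transcript with the largest gain in a gene. Smaller gains without overlap went both ways. Ifi208-203 (18.3%, against 3.62% in controls on average) ends before Ifi208-201, and Ifi214-203 (17.9%, against 10.2%) ends beyond Ifi214-201. In Ifi206, Ifi207 and Ifi213 the share of the transcript with the largest gain overlapped between the groups. The pattern was thus not general in the family. In Ifi204 the gain was in Ifi204-201, at 76.5, 76.7 and 83.1%, against 56.1, 19.9, 35.05 and 58.4%, and in Ifi205 in Ifi205-201, at 65.3, 35.7 and 88.7%, against 14.4, 18.6, 0 and 0%. Both reach further than the retained-intron transcripts Ifi204-202 and Ifi205-202, which had the larger mean share in controls. Ifi204-202 led in control units 2 and 3 only, and control units held 34.3 to 94.5 reads of Ifi204. Shares rest on kallisto's division of common reads: 19.9% of the words of Ifi203-205, 7.67% of those of Ifi209-202 and none of those of Ifi203-202 and Ifi208-202 occur in that transcript only.

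Among all transcripts with a mean share of at least 1% in genes of at least 2 transcripts and 10 reads in every unit, the share did not overlap between the groups in 15.1% of 36859, and in 2.30% it also differed by at least 20 percentage points. For the 25 such transcripts of the 7 members the counts were 12 and 6, and for the 36 of all 14 p200 genes 20 and 12, and transcripts of 1 gene share their total. By limma on log2(TPM + 1), 7 of the 30 tested transcripts of the members were called, 3 higher and 4 lower, where 2.31% of 34064 transcripts were called. The contrast is the one the members were chosen on. Leaving out control unit 4 lowered the calls over all transcripts to 163, against 786 with all units.

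**Figure D3:**
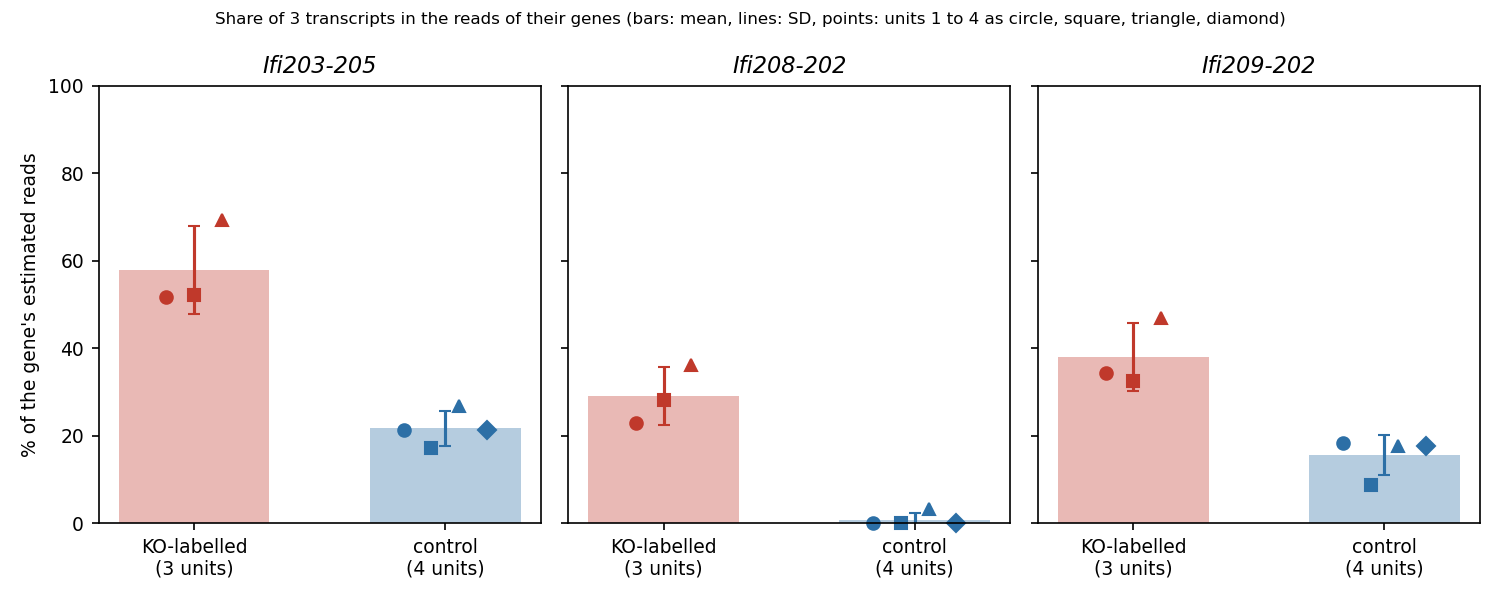
Share of each transcript in the estimated reads of its gene, in percent, for Ifi203-205, Ifi208-202 and Ifi209-202, with the KO-labelled units left of the controls; bars are means, lines the SD and points the units. All KO-labelled shares lie above all control shares, by 57.8% against 21.7% on average for Ifi203-205.

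Genes that work with AIM2 and other cytosolic DNA sensors moved in both directions. Of 19 tested, 2 were higher and 3 lower in the KO-labelled units, beside 7.07% higher and 6.52% lower over all tested genes. Their median log2 difference was -0.05, beside 0.06 over all genes. Casp1, the inflammasome protease, had 17.7, 13.7 and 14.6 CPM, against 54.8, 40.1, 24.0 and 39.1 CPM in controls, and fell by 1.36 ± 0.25 (SE) on the log2 scale (edgeR adjusted p = 0.0107). Casp4, the caspase-11 gene that senses bacterial lipopolysaccharide, fell by 1.65 ± 0.33 (adjusted p = 0.0174). Pycard, which encodes the ASC adaptor, had 39.2, 30.7 and 33.6 CPM, against 32.3, 38.9, 39.2 and 32.5 CPM (-0.05 ± 0.15, adjusted p = 0.84). Il1b, the cytokine precursor that caspase-1 cleaves, had 16.6, 11.8 and 12.8 CPM, against 1.02, 0.0488, 0.0999 and 0.457 CPM, a rise of 5.26 ± 0.83 (adjusted p = 0.010). Casp8 (-0.55 ± 0.15, adjusted p = 0.0369) was the third lower gene and Trex1, a DNA exonuclease (1.04 ± 0.30, adjusted p = 0.0469), the second higher one. The count of 5 was 2 without the second or KO-labelled unit 3, and 3 without the first or without control unit 2 or 4. Neutrophil and monocyte marker levels, given above, were also higher, and their part in Il1b was not tested.

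Genes induced by interferon outside the family were called lower or not called. Of 52 tested, 20 were lower, none was higher and the rest were not called, beside 6.52% lower and 7.07% higher over all tested genes. Their median was -0.54, beside 0.06 over all genes. Ifit3, an antiviral RNA-binding protein, had 9.27, 11.6 and 6.78 CPM in the KO-labelled units, against 26.4, 34.9, 41.6 and 24.5 CPM in controls, and fell by 1.79 ± 0.26 (SE, edgeR adjusted p = 0.00348). Rtp4 fell by 1.12 ± 0.18 (adjusted p = 0.00541), Ifit2 by 0.80 ± 0.15 (adjusted p = 0.011) and the RNA sensor Ifih1 by 0.66 ± 0.12 (adjusted p = 0.0105). Lower p200 genes and lower interferon-induced genes were seen in the same comparison, in which Ifi202b, Ifi204, Ifi211 and Ifi203-ps were called higher. The 16 regulatory T cell markers had a median of -0.59, so a lower median was not particular to the interferon-induced list. A link between these lists was not tested. The count of 20 was 10 with a correction for GC content and length, 8 without control unit 4, 11 without the second and 13 without KO-labelled unit 3.

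The receptors and signalling genes upstream moved in both directions: of 17 tested, 2 were higher and 2 lower (median -0.07). Over all tested genes 7.07% were higher and 6.52% lower. Irf9, whose product binds the response element, was at -0.26 ± 0.13 (SE, edgeR adjusted p = 0.175) and the receptor gene Ifnar1 at 0.04 ± 0.14 (adjusted p = 0.876). Irf8 rose by 1.44 ± 0.21 (adjusted p = 0.00378) and Irf1 by 0.61 ± 0.13 (adjusted p = 0.017). The inhibitors Socs1 and Usp18 fell by 0.83 ± 0.18 and 0.97 ± 0.26 (adjusted p = 0.0195 and 0.0373). Without control unit 4 the count of 4 was 1, and without the second KO-labelled unit it was 2. Irf8 is also a gene of B cells and myeloid cells, whose markers were higher, and their part in its level was not tested.

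**Figure D4:**
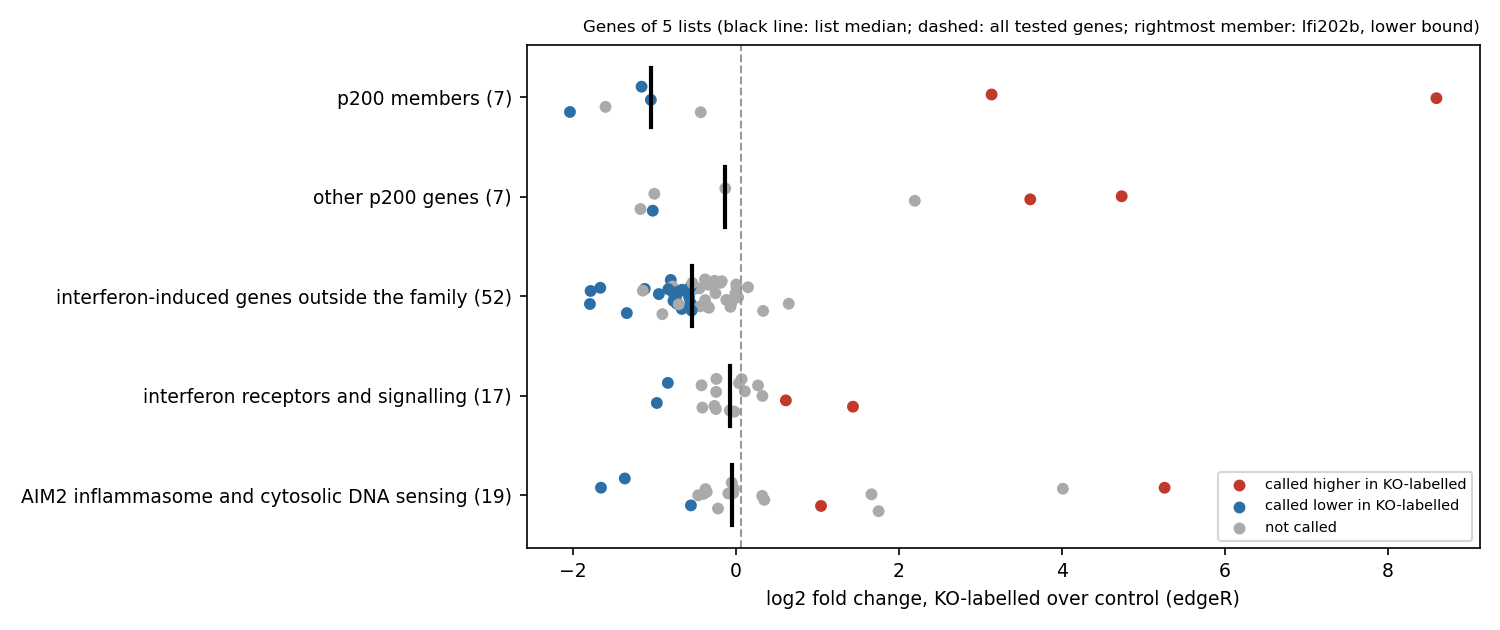
Log2 difference of every tested gene, KO-labelled over control, in 5 lists, with calls coloured, a black line at each list's median and a dashed line at the median of all tested genes. The interferon-induced genes lie mostly left of the dashed line (median -0.54), while the p200 lists spread over both sides.

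The neighbourhood of the cluster was looked at within 1 Mb of the outermost members. Of 53 genes outside the family there, 13 had enough reads, of which 3 were higher and 2 lower. Over all tested genes 7.07% were higher and 6.52% lower. Pigm, an enzyme of the glycosylphosphatidylinositol anchor, had 127, 126 and 82.5 CPM in the KO-labelled units, against 196, 205, 190 and 193 CPM in controls (-0.81 ± 0.16 SE, edgeR adjusted p = 0.0131). Fcer1a, the IgE receptor chain of mast cells and basophils, had 57, 52 and 81 reads and Gm18445, a pseudogene just beyond Ifi202b, had 55.6, 21.5 and 62.6 reads, and both had 0 in every control unit (adjusted p = 0.00541 and 0.0107). Slamf9, at 1.99, 0.791 and 1.03 CPM, against 0.157, 0, 0.0499 and 0.381 CPM, rose (adjusted p = 0.0403), and the pseudogene Gm18752, at 1.08, 0.638 and 0.390 CPM, against 5.58, 3.42, 3.95 and 3.50 CPM, fell (adjusted p = 0.00892). In the 5-Mb window from 170 to 175 Mb, chosen after its values were seen, 15 of 66 tested genes outside the family were called (22.7%), where 130 of the 921 tested genes of chromosome 1 outside the family and this window were (14.1%). Single windows of this chromosome varied widely. The share was 25.8% of 31 genes from 50 to 55 Mb, 22.9% of 48 from 55 to 60 Mb and 3.45% of 29 from 135 to 140 Mb. The window of the family thus did not stand out.

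The genes outside the family whose log2 CPM followed Mndal most closely over the 7 units were Zmym4, Etnk1, Samd9l and Iws1 (Pearson's r 0.998, 0.997, 0.996 and 0.995). Those that followed Ifi203 were Phtf2, Cpsf6, Cdc37l1 and Tubgcp5 (0.998, 0.997, 0.996 and 0.996). They are the highest of 9209 genes compared, and none of the 8 lies on chromosome 1. Within the family, Ifi203 (0.990), Ifi213 (0.984) and Ifi209 (0.978) followed Mndal, and Ifi202b ran against it (-0.911). These values describe 7 units in 2 groups, which share the group difference and the low level of KO-labelled unit 3, and carry no test.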

How the data were processed

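The 14 deposited tables, 1 per sequenced sample, are kallisto output for GRCm38, per the submitters' processing notes; the kallisto version and the annotation release are not given in the sources used here. Per the file headers, the authors deposited expected counts (estimated reads per transcript, not normalized) and TPM. The library kit kept no strand, per the labels' protocols. Transcripts were matched by identifier to GENCODE vM21; 2079 of 88198 had no gene and were left out. Reads were summed per gene and over the 2 tables of a unit, and rounded. Genes were tested with edgeR 4.0.16 (TMM, filterByExpr, robust quasi-likelihood fit, group only, Benjamini-Hochberg adjustment) and transcripts (mean TPM 1 or more) with limma 3.58.1 on log2(TPM + 1). Each SE is the log2 fold change over the root of the test's F value. CPM use TMM library sizes. The steps were tested on simulated data. Alternatives were DESeq2 1.42.0, limma-voom, other filters, offsets, a replicate block and leaving out units.

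The members and gene lists were chosen with earlier results of these data known. Named genes are all p200 genes, up to 4 called genes per list with the smallest adjusted p, Pycard, Casp1, Irf1, Irf9 and Ifnar1, called neighbours within 1 Mb, and the 4 genes most like Mndal and Ifi203; 1 further gene of the rule is not reported here. Shared sequence counts the 31-base words of a gene that another gene of the reference holds; the annotation used by the authors may differ from it, since 76487 transcripts had the same length in both. The floor of 3 reads covers counting error only.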

Additional observations from a re-analysis of the deposited data

Results flagged for a closer look

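Of 13 p200 genes with reads in controls, Ifi207 was the 1 gene with a control unit far from the others: unit 1 had 8.73 CPM, against 0.0488, 0.175 and 1.14 CPM in the other control units, and lay within the range of the KO-labelled units (7.48 to 13.5 CPM). Chance flags about 1 in 20 such groups.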

How the results depend on the processing

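Ifi202b, Ifi203, Ifi209, Ifi208 and Ifi211 kept their direction and their call in all 15 alternatives, Ifi204 in 14, Ifi203-ps in 13 and Mndal in 6. Aim2 and Ifi205 were called in none. The alternatives reuse the units on which the members were chosen, so a kept call of a member is a description and no further support. The sign of Ifi214 turned with a GC and length offset (0.33) and without KO-labelled unit 3 (0.093, with a range of -0.26 to 0.093 without 1 unit). The 2144 genes called became 1156 with the GC and length offset, 3546 with DESeq2's Wald test and 758 to 1905 without 1 unit. The inflammasome and DNA sensing list (5 calls) gave 3 with the GC and length offset, 3 with a transcript length offset, 9 with the Wald test and 2 to 6 without 1 unit. Interferon signalling (4) gave 7 with the Wald test and 1 to 4 without 1 unit. The interferon-induced list (20) gave 10 with the GC and length offset and 8 to 19 without 1 unit. The neighbours (5) gave 3 with a minimum of 1 CPM in 3 units, 3 with the GC and length offset and 4 to 6 without 1 unit. Transcript calls (786) became 365 with log2(TPM + 0.1) and 163 to 1048 without 1 unit. The cause was not tested for these. Summing all 14 p200 genes gave 1543, 1540 and 823 CPM in the KO-labelled units, against 3358, 2752, 2670 and 3135 CPM in controls. By Spearman's correlation, 67 genes tied at 1 with Mndal and 67 with Ifi203, so it ranked none first.

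The unit numbers gave no sign of pairing: deviations from the group means had correlations of 0.0275, -0.123 and -0.0543 between same-numbered units. No label says whether they were paired. With a replicate block, which leaves out control unit 4, 553 genes were called, against 758 in the same units without it, a comparison added after seeing the data that is the same fit as leaving out control unit 4. The block gave 3 calls in the inflammasome list (3 without it), 1 in interferon signalling (1), 3 in the interferon-induced list (8) and 2 among the neighbours (5).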

Other observations

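Of the 51 genes with reads in every KO-labelled unit (at least 100 in total) and none in any control unit, 23 are immunoglobulin segments, 13 pseudogenes and 15 protein-coding genes; they were picked after their values were seen. Among the protein-coding genes, Ccnb1ip1 on chromosome 14, a ubiquitin ligase of meiotic crossover, had the most reads after Ifi202b, with 82, 68 and 295 in the KO-labelled units. It ranked 17 among all 51. The polymorphic pseudogene H2-Ea-ps on chromosome 17, the class II alpha chain gene that some inbred strains transcribe and C57BL/6 does not, had 174, 241 and 23 reads. The mast cell and basophil gene Fcer1a, the granulocyte factor Cebpe and the cytokine gene Il6 were also in this set, with 57, 52 and 81, with 50, 14 and 195, and with 50, 57 and 73 reads. All of these were at 0 in every control unit, and Ccnb1ip1, like Ifi202b, was highest in KO-labelled unit 3 while H2-Ea-ps was lowest there.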
